A study of Saccharomyces cerevisiae with 10 samples.

Results

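IMD2, IMD3, IMD4, GUA1 and ADE12 encode the enzymes that turn inosine monophosphate (IMP), the end product of purine synthesis, into guanine and adenine nucleotides. These 5 genes were taken by identifier from the 6608 features of the deposited counts for rich medium and the 6190 features of the deposited table for synthetic medium, and all 5 were found in both. They were chosen by their place in the pathway with the measured footprint and mRNA differences of these data already known, so their own differences are given as a description. No test is drawn on for them: where the number that passed the test across all genes is printed, it stands beside the share of all genes that passed. Ribosome footprints (stretches of mRNA shielded by translating ribosomes) and mRNA came from Saccharomyces cerevisiae of the 74D694 background. Every culture grew at 30 °C until its OD600 lay between 0.6 and 0.8, and every group received cycloheximide, an inhibitor of elongation.

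The rich medium (YPD) groups were cells carrying the prion [PSI+], the self-propagating aggregated form of the termination factor Sup35, and isogenic cells without it, [psi-]. Each had 2 footprint libraries and 1 mRNA library. The synthetic medium groups (YNB with CSM-U, 2% glucose) were [PSI+] cells overexpressing SUP35-Cter, a C-terminal fragment of that factor, and [PSI+] cells, with 2 footprint libraries each. The labels give neither the promoter nor the plasmid of SUP35-Cter, and all comparisons rest on 1 strain background.

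IMP dehydrogenase, encoded by the IMD genes, oxidises IMP to xanthosine monophosphate and is the committed step towards GTP. GMP synthase, encoded by GUA1, then aminates that product to GMP. Adenylosuccinate synthase, encoded by ADE12, opens the other branch, which leads to AMP. In budding yeast IMD2 is known for its control by guanine nucleotides: when these are plentiful, RNA polymerase II starts upstream and makes short unstable transcripts, and when they are scarce it starts downstream and makes the coding mRNA. IMD2, IMD3 and IMD4 are closely related in sequence, so how reads were divided between them is uncertain. IMD4 contains an intron, and RefSeq places the small nucleolar RNA snR54, 86 bases long, inside the gene.

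On assembly R64, which is the build of the YNB table (sacCer3), IMD2 (YHR216W) lies on chromosome VIII at 554396 to 555967 and IMD3 (YLR432W) on chromosome XII at 1002557 to 1004128. IMD4 (YML056C) lies on chromosome XIII at 162194 to 164176, a span that includes its intron. GUA1 (YMR217W) lies on the same chromosome at 701790 to 703367, and ADE12 (YNL220W) on chromosome XIV at 234413 to 235714. The YPD reads were mapped to an older build, for which no coordinates are given.

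The YPD footprint libraries held 2497170 to 3579039 reads in genes and the mRNA libraries 5494957 ([PSI+]) and 2480012 ([psi-]). In YPD, SUP35 footprints were 305 and 296 CPM in [PSI+] and 644 and 633 CPM in [psi-], where footprint CPM is reads scaled to library size with TMM factors. The mRNA CPM below are scaled to library totals alone. SUP35 footprints in YNB averaged 20432 normalized counts with SUP35-Cter and 6207 in [PSI+]. URA3 footprints in YNB averaged 4224 with SUP35-Cter and 820 in [PSI+], so these groups differed in more than SUP35. The 4 genes of the 2-micron plasmid, an extrachromosomal element of yeast, had 236 to 4869 mRNA reads each in [PSI+] and 0 in [psi-]. The [psi-] footprint libraries did hold such reads (409 and 401 for R0040C). The [psi-] mRNA library thus stood apart from the [psi-] footprint libraries, and every comparison with mRNA rests on it, since it has no replicate. The [psi-] footprint libraries are described as biological replicates but lay close to each other: their chi-square over genes was 1.27 per degree of freedom, against 19.35 or more between the [PSI+] libraries, where 1 is counting noise alone.

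The first comparison asked how many ribosomes each gene carried in [PSI+] and in [psi-] cells in YPD. IMD2 stood far lower in [PSI+], IMD3 lower, IMD4 and ADE12 slightly lower, and GUA1 slightly higher. Values are footprint CPM, and a log2 fold change is [PSI+] over [psi-].

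IMD2, the copy of IMP dehydrogenase that responds to guanine nucleotides, had 25 and 11 footprint reads in the [PSI+] libraries and 553 and 585 in the [psi-] libraries. On the CPM scale this was 9.91 and 3.17 in [PSI+], against 165 and 169 in [psi-]. Both [PSI+] libraries lay far below both [psi-] libraries, and the [PSI+] libraries also stood apart from each other. The log2 fold change was -4.61 ± 0.35 (SE), and 35 of the 5135 genes tested had a lower one. It depended on which [PSI+] library was kept: -5.46 without replicate 1 and -3.94 without replicate 2. Each [PSI+] library was sequenced in 2 runs, which gave 14 and 11 IMD2 reads for replicate 1 and 8 and 3 for replicate 2.

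IMD3, another IMP dehydrogenase gene, had 245 and 190 CPM in the [PSI+] libraries and 398 and 395 CPM in the [psi-] libraries. The groups did not overlap, and the [psi-] libraries were closer to each other than the [PSI+] libraries were. The mean was 218 ± 39.5 CPM in [PSI+] and 397 ± 2.28 CPM in [psi-] (SD, n = 2 each). Its log2 fold change was -0.86 ± 0.16 (SE).

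IMD4, the copy with the intron, had 294 and 213 CPM in the [PSI+] libraries and 339 and 323 CPM in the [psi-] libraries. The [PSI+] libraries differed from each other by more than the higher of them differed from [psi-]. The log2 fold change was -0.38 ± 0.18 (SE), and it was -0.63 without [PSI+] replicate 1 and -0.15 without [PSI+] replicate 2.

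GUA1, the GMP synthase gene, had 811 and 709 CPM in [PSI+] and 592 and 574 CPM in [psi-], a log2 fold change of 0.38 ± 0.13 (SE). It was the only one of the 5 genes with more footprints in [PSI+], in both libraries. ADE12, at the entry of the adenine branch, had 511 and 519 CPM in [PSI+] and 624 and 655 CPM in [psi-], a log2 fold change of -0.31 ± 0.12 (SE). Its libraries were close within each strain and did not overlap between strains.

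All 5 genes had groups that did not overlap, as did 72.9% of the 5135 genes tested. With edgeR's quasi-likelihood test and a Benjamini-Hochberg adjusted p under 0.05, 2 of the 5 (IMD2 and IMD3) were called lower and 0 higher, against 34.6% of all genes called (18.9% lower and 15.7% higher). Because the genes were chosen with this contrast known, nothing is read from these counts. The count moved with the libraries used. No count of the 5 is given for fits that leave 1 library in a group, whose spread comes from the other pair alone. Without [PSI+] replicate 1 or 2, the log2 fold change was -1.06 or -0.67 for IMD3 and 0.28 or 0.49 for GUA1. For ADE12 it was -0.30 or -0.31. With upper-quartile factors GUA1 was called as well, higher in [PSI+]. In that fit 1219 of 5135 genes were called higher and 795 lower. The authors' deposited table, whose fold runs from [PSI+] to [psi-], lists 4 of the 5 genes, with a log2 of 4.71 for IMD2, 1.03 for IMD3, 0.55 for IMD4 and 0.48 for ADE12. That table, made from the same footprint libraries, holds only genes with an adjusted p under 0.1. These were 1791 genes, beside 6608 features counted, and GUA1 is not among them.

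**Figure D1:**
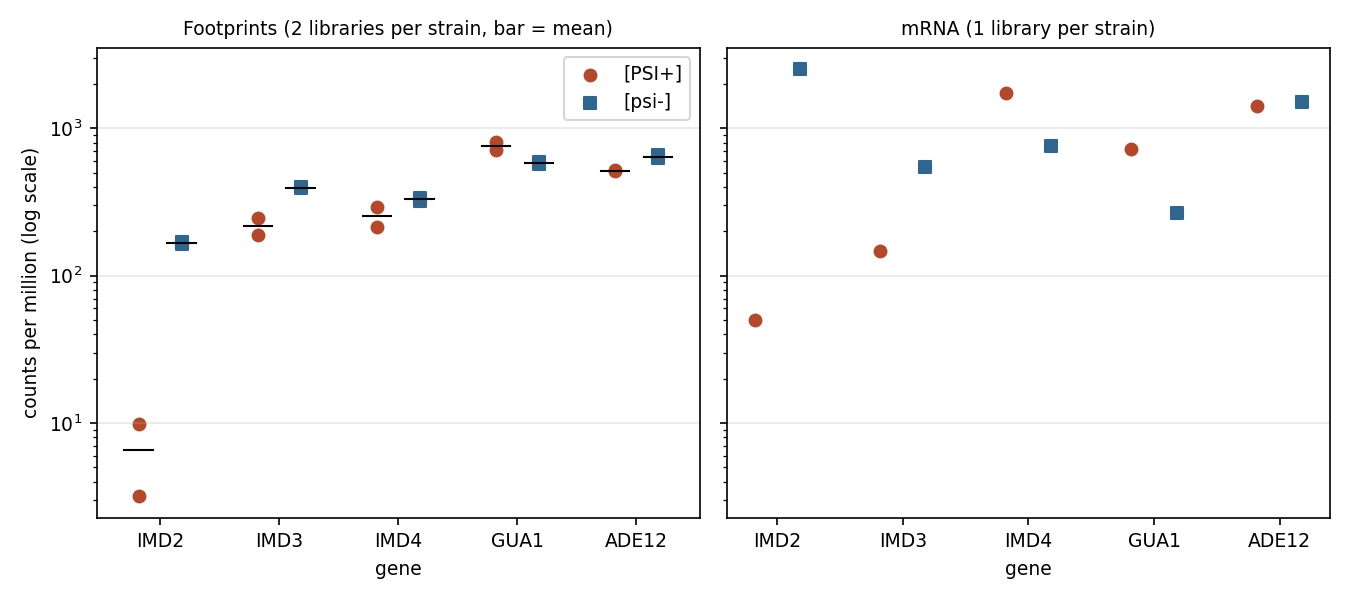
CPM on a log axis for each gene, in footprint libraries (left, TMM scaled, circles [PSI+], squares [psi-], black bar the mean of 2 libraries) and mRNA libraries (right, library totals, 1 per strain). IMD2 lies at 9.91 and 3.17 CPM of footprints in [PSI+], against 165 and 169 in [psi-], and at 49.9 against 2523 CPM of mRNA.

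mRNA was compared next, with 1 library per strain and therefore no replicate check and no test. Ratios are [PSI+] over [psi-] of reads per library total, with a 95% counting interval that covers counting error only. The all-gene median of the log2 ratio was -0.42, and log2 values are given relative to it. IMD2 and IMD3 mRNA were lower in [PSI+], IMD4 and GUA1 mRNA were higher, and ADE12 lay near the median of all genes.

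IMD2 mRNA had 274 reads in [PSI+] and 6257 in [psi-], or 49.9 against 2523 CPM. In [psi-] it had more mRNA reads than any of the other 4 genes, and in [PSI+] it had fewer. It was 50.6-fold lower in [PSI+] (interval 44.8 to 57.3). Set against the all-gene median, its log2 ratio was -5.24. IMD3 mRNA had 809 reads in [PSI+] and 1362 in [psi-]. Scaled to library totals it was 3.73-fold lower in [PSI+] (3.42 to 4.07), or -1.48 relative to all genes.

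IMD4 mRNA had 9528 reads in [PSI+] and 1877 in [psi-], a ratio of 2.29 (2.18 to 2.41), which is 1.62 (log2) above the all-gene median. Its footprints stood on the other side, slightly lower in [PSI+]. Reads of snR54 have no feature of their own in either table, so whether RNA of the intron was counted with IMD4 was not tested. GUA1 mRNA had 4005 reads in [PSI+] and 661 in [psi-], a ratio of 2.73 (2.52 to 2.97), or 1.87 relative to all genes. ADE12 mRNA had 7816 reads in [PSI+] and 3727 in [psi-], a ratio of 0.946 (0.910 to 0.984) from library totals, which became higher in [PSI+], 0.34 on the log2 scale, once set against the median of all genes.

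More than 2-fold from the all-gene median, 2 of the 5 genes were higher (IMD4 and GUA1), against 21.8% of the 5346 genes measured, and 2 were lower (IMD2 and IMD3), against 22.7%. Summed over the 3 IMD copies, mRNA was 1931 CPM in [PSI+] and 3829 in [psi-], 1.98-fold lower by library totals (1.93 to 2.04). Against the all-gene median its log2 ratio was -0.57. The summed IMD footprints were 478 ± 101 CPM in [PSI+] and 894 ± 10.4 CPM in [psi-] (SD, n = 2 each). The log2 fold change of that sum, with TMM scaling, was -0.90 ± 0.18 (SE).

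**Figure D2:**
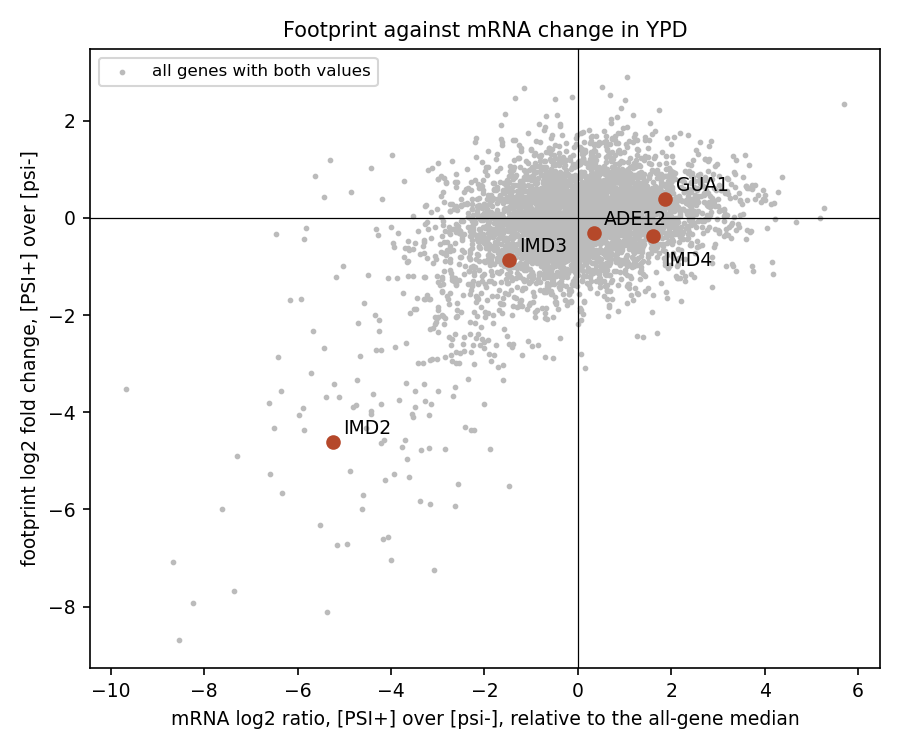
Footprint log2 fold change against mRNA log2 ratio relative to the all-gene median, both [PSI+] over [psi-] in YPD, for 5027 genes (grey) and the 5 branch genes (red). IMD2 lies at -4.61 and -5.24 in the lower left, whereas IMD4 lies at -0.38 in footprints and 1.62 in mRNA.

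Translational efficiency, footprints relative to mRNA, was compared with an interaction term (strain by kind of library). The unreplicated mRNA libraries carry no spread of their own, so that of the footprint libraries stands in for it. IMD4 and GUA1 carried fewer footprints per mRNA in [PSI+], while IMD2 and IMD3 differed by less.

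The interaction was -2.0 ± 0.31 (SE, log2) for IMD4 and -1.49 ± 0.23 for GUA1. For ADE12 it was -0.66 ± 0.21. For IMD3 it was 0.61 ± 0.27, with 0.39 without [PSI+] replicate 1 and 0.78 without [PSI+] replicate 2. For IMD2 it was 0.63 ± 0.58, and this changed sign with the [PSI+] library kept: -0.25 without replicate 1 and 1.26 without replicate 2. For the summed IMD copies it was -0.34 ± 0.31, and the value of each copy depends on how shared reads were divided. Of the 5 genes 2 (IMD4 and GUA1) were called lower and 0 higher, against 38.4% of 5437 genes called (20.5% lower and 17.9% higher), a count from which nothing is read. The count moved with the libraries used, and none is given for fits that leave 1 footprint library in a group. Without [PSI+] replicate 1 or 2, the change was -2.27 or -1.80 for IMD4 and -1.61 or -1.41 for GUA1. For ADE12 it was -0.67 or -0.68. With no filter on low counts ADE12 was called lower too. In that fit 1203 of 5893 genes were called lower and 883 higher.

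**Figure D3:**
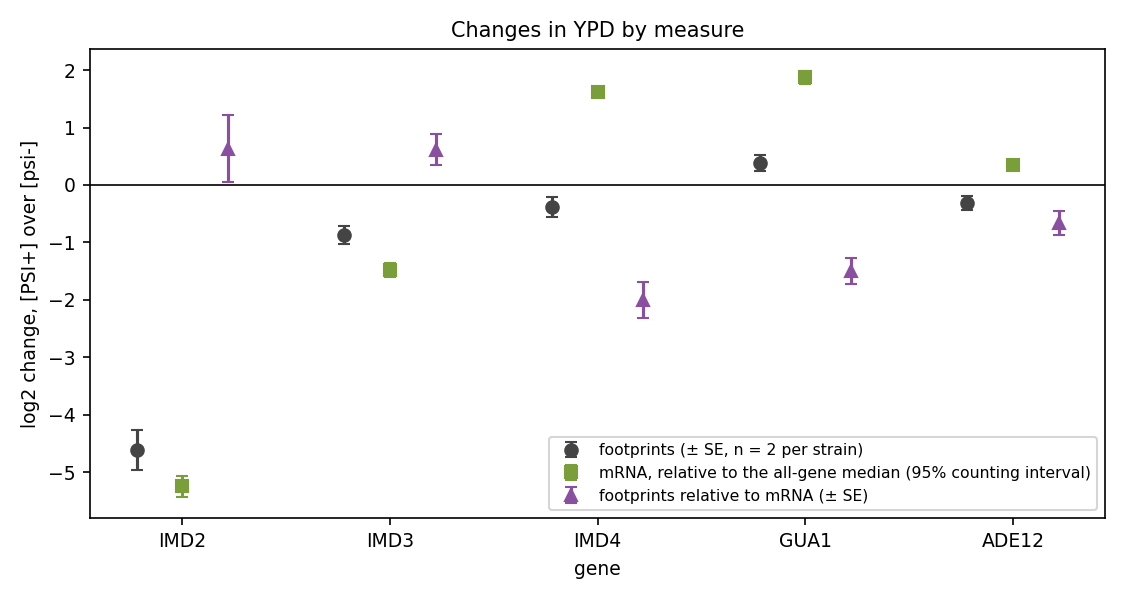
log2 change, [PSI+] over [psi-], of each gene in footprints (circles, ± SE), mRNA relative to the all-gene median (squares, 95% counting interval) and footprints relative to mRNA (triangles, ± SE). IMD2 lies at -4.61 in footprints and -5.24 in mRNA, whereas IMD4 lies at -0.38 and 1.62.

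Within each strain, footprint reads were divided by mRNA reads of the same gene, both scaled to library totals without TMM factors, which gives a ratio in which gene length cancels. For IMD2 it was 0.201 and 0.068 with the 2 [PSI+] footprint libraries, and 0.063 and 0.065 with the [psi-] ones. In [psi-] these values stood at percentiles 3.98 and 4.20 of the 4880 genes measured. IMD3 stood much higher, at 1.68 and 1.37 in [PSI+] and 0.704 and 0.695 in [psi-]. IMD4 had 0.171 and 0.131 in [PSI+] and 0.434 and 0.412 in [psi-]. GUA1 had 1.12 and 1.03 in [PSI+] and 2.16 and 2.08 in [psi-], the highest of the 5 genes in [psi-]. ADE12 had 0.363 and 0.388 in [PSI+] and 0.403 and 0.421 in [psi-].

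The division of reads between the 3 IMD copies depends directly on how shared sequence was handled, which the sources do not give. In footprints, IMD2 made up 1.81% (exact binomial 95% interval 1.17 to 2.65) and 0.781% (0.391 to 1.39) of IMD reads in the [PSI+] libraries. In the [psi-] libraries it made up 18.3% (16.9 to 19.7) and 19.1% (17.7 to 20.5). The share of IMD3 was similar in both strains, at 44.7% and 46.7% in [PSI+] against 44.2% and 44.5% in [psi-]. The share of IMD4 was 53.5% and 52.6% in [PSI+], against 37.6% and 36.4% in [psi-].

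In mRNA the division differed much more. IMD4 made up 89.8% of IMD mRNA reads in [PSI+], against 19.8% in [psi-]. IMD2 made up 2.58% in [PSI+] and 65.9% in [psi-], where it was the most abundant copy by reads. IMD2 and IMD3 have the same length, so their reads can be set side by side: IMD2 had fewer mRNA reads than IMD3 in [PSI+] and more in [psi-], while it had fewer footprint reads than IMD3 in both strains.

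**Figure D4:**
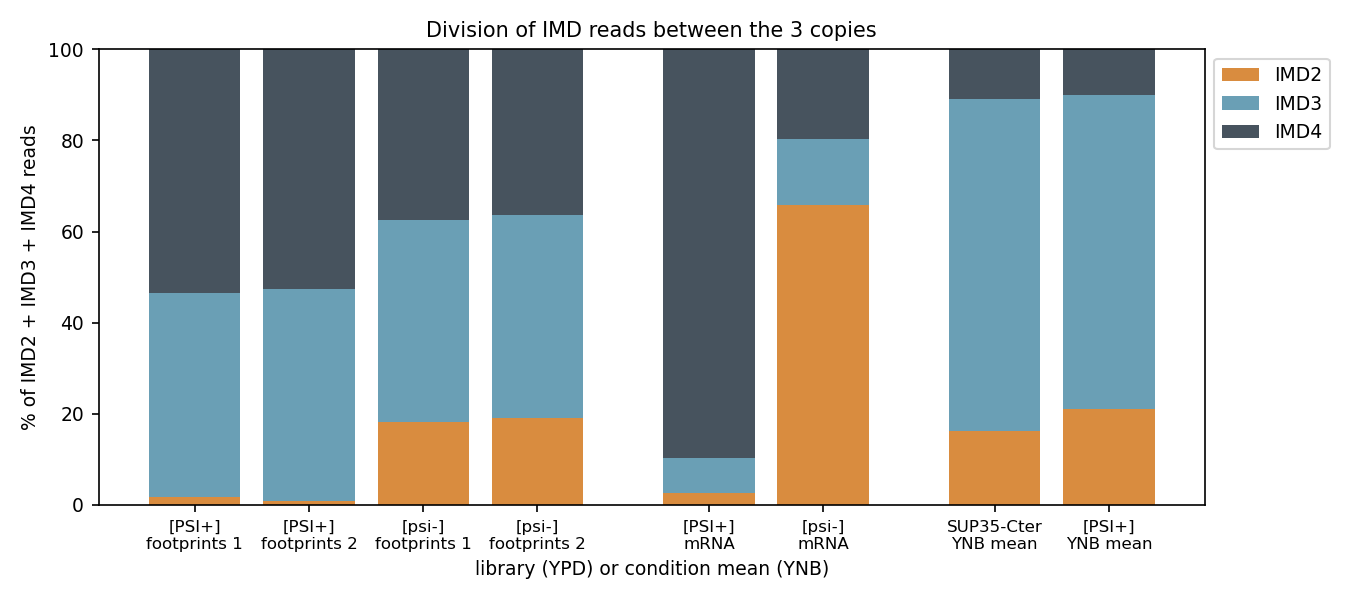
Share of IMD2, IMD3 and IMD4 in their summed reads (%), for each YPD library and for the 2 condition means in YNB. IMD2 takes 1.81% and 0.781% of footprint reads in [PSI+], against 18.3% and 19.1% in [psi-], and in YNB 16.2% with SUP35-Cter and 21.0% in [PSI+].

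IMD1 (YAR073W and YAR075W in the files), a further copy near a chromosome end that is thought not to make a working enzyme, was set beside these because its sequence is almost that of IMD2. YAR073W had 4 and 0 footprint reads in the [PSI+] libraries and 30 and 28 in the [psi-] libraries. In mRNA it had 1 read in [PSI+] and 26 in [psi-]. Both measures thus lay on the side of IMD2, and whether these are reads of IMD2 was not tested. YAR075W had 0 footprint reads in each [PSI+] library and 1 in each [psi-] library.

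The YNB comparison set footprints of [PSI+] cells overexpressing SUP35-Cter beside those of [PSI+] cells, groups that also differed in URA3 footprints. All 5 genes had lower condition means with SUP35-Cter, from 0.481 times the [PSI+] mean for IMD2 to 0.943 times for ADE12. The deposited table gives means of 2 libraries per condition and no value per library, so the spread between replicates is not known here, and values are the authors' means.

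IMD2 averaged 4287 normalized counts with SUP35-Cter and 8914 in [PSI+], a log2 ratio of -1.06. IMD3 averaged 19376 with SUP35-Cter and 29311 in [PSI+] (log2 -0.60), and IMD4 2883 with SUP35-Cter and 4257 in [PSI+] (log2 -0.56). IMD2 had the lowest ratio of the 3, at percentile 1.1 of 5566 genes.

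GUA1 averaged 11530 with SUP35-Cter and 14377 in [PSI+] (log2 -0.32). ADE12 averaged 21733 with SUP35-Cter and 23047 in [PSI+] (log2 -0.08), close to the all-gene median of -0.02. By the authors' DESeq values, 0 of the 5 genes had an adjusted p under 0.05, against 1.32% of 6190 features, and 0 had an unadjusted p under 0.05, against 7.59%. No other tool could be run on these means.

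Per kilobase of gene span, which allows genes to be compared, the means with SUP35-Cter were 16692 for ADE12, 12326 for IMD3, 7307 for GUA1, 2727 for IMD2 and 1454 for IMD4, whose span includes its intron. In [PSI+] they were 18645 for IMD3, 17701 for ADE12, 9111 for GUA1, 5670 for IMD2 and 2147 for IMD4. IMD3 and ADE12 thus changed places, and with no spread per library neither order can be held against replicate error.

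**Figure D5:**
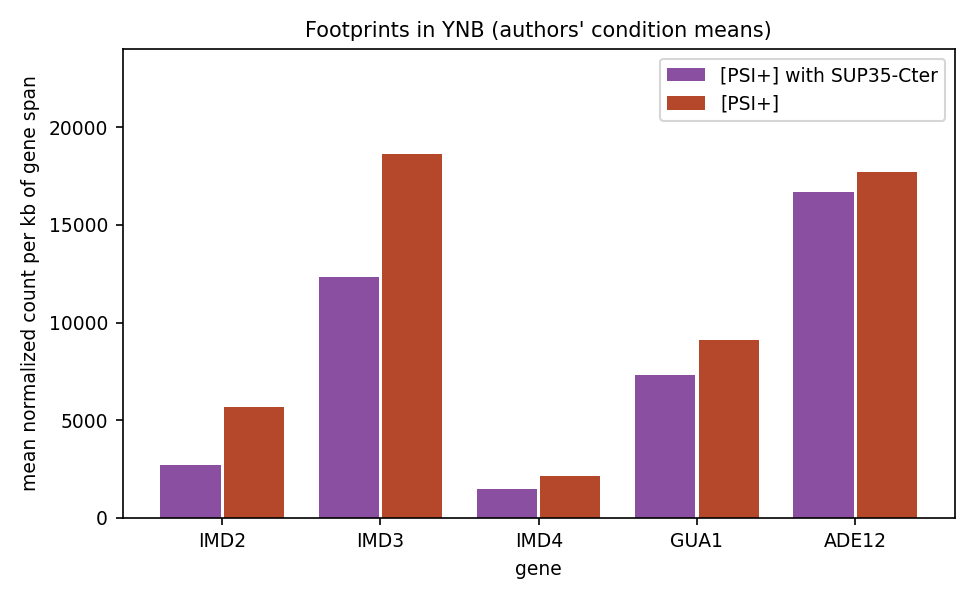
Footprint level in YNB as the authors' mean normalized count per kilobase of gene span, with SUP35-Cter (purple) and in [PSI+] (red). IMD2 stands at 2727 with SUP35-Cter and 5670 in [PSI+], while ADE12 stands at 16692 with SUP35-Cter and 17701 in [PSI+].

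[PSI+] cells were thus measured in both media, in tables that were mapped to different builds and normalized separately. Within each table, IMD2 made up 1.81% and 0.781% of IMD footprints in the YPD [PSI+] libraries, and 16.2% with SUP35-Cter and 21.0% in [PSI+] of the YNB means. IMD4 made up 53.5% and 52.6% in YPD [PSI+], and 10.9% with SUP35-Cter and 10.02% in [PSI+] in YNB. Medium, mapping tool and build differed together between these tables and cannot be told apart.

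Other purine genes in YPD footprints were counted from lists chosen with earlier results known. Fell and rose stand for an adjusted p under 0.05 in edgeR's quasi-likelihood test, which 18.9% and 15.7% of all genes passed as lower and higher in [PSI+]. Of 11 genes of the pathway that makes IMP, 7 fell in [PSI+] and 0 rose, with a list median of -0.54 against 0.02 for all genes tested. ADE2 had a log2 fold change of -1.26, ADE17 -0.85, ADE3 -0.73, ADE8 -0.68, ADE6 -0.59 and ADE57 (ADE5,7) -0.54. ADE4 (0.08), ADE13 (0.03) and MTD1 (0.22) had values above 0 and did not pass. ADE1 (-0.28) lay below 0 and did not pass either. With upper-quartile factors 5 of these 11 genes fell and 0 rose, with a list median of -0.395. In that fit 795 of 5135 genes were called lower and 1219 higher. DESeq2 called 6 of the 11 lower and 0 higher, beside 789 lower and 535 higher among 5135 genes. The list median was -0.43 without [PSI+] replicate 1 and -0.65 without [PSI+] replicate 2. The number of list genes called moved with the libraries used. For this and the following lists it is not given for fits that leave 1 library in a group.

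Of 13 tested genes of purine salvage, interconversion and uptake, 3 rose and 0 fell (median 0.12). XPT1 (xanthine phosphoribosyltransferase) stood at 1.07, PNP1 (purine nucleoside phosphorylase) at 0.93 and AAH1 (adenine deaminase) at 0.85. HPT1, the hypoxanthine and guanine phosphoribosyltransferase that also supplies GMP, stood at 0.27 in footprints and did not pass; its mRNA had 7502 reads in [PSI+] and 831 in [psi-], a ratio of 4.07 (3.79 to 4.38). In mRNA, 7 of the 14 genes of this list lay more than 2-fold above the all-gene median, against 21.8% of all genes. Below it by more than 2-fold lay 2, APT2 (ratio 0.106) and FCY21 (0.275), against 22.7%. PNP1 mRNA had a ratio of 0.63. The list median in footprints was 0.06 without [PSI+] replicate 1 and 0.13 without [PSI+] replicate 2.

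Of 5 PRPP synthetase genes 1 fell, PRS4 (-0.64), and 0 rose (median 0.02), a share near that of all genes. With upper-quartile factors, where 795 of 5135 genes were called lower and 1219 higher, 0 of these 5 fell. The median of these 5 was -0.19 without [PSI+] replicate 1 and 0.18 without [PSI+] replicate 2, so its sign turned with the library kept. Of 8 nucleotide kinase and ribonucleotide reductase genes 2 fell, YNK1 (nucleoside diphosphate kinase, -1.71) and RNR2 (-0.64), and 0 rose; GUK1, the guanylate kinase that follows GUA1, stood at -0.06. The median of these 8 was -0.18, with -0.10 without [PSI+] replicate 1 and -0.19 without [PSI+] replicate 2. With upper-quartile factors 1 rose and 1 fell. Of 8 regulators of purine genes and of IMD2 transcription, SEN1 (a helicase of the termination complex that acts on short transcripts) rose by 0.86 on the log2 scale, while NRD1 (-0.67), its RNA-binding partner, and DST1 (-0.44), an elongation factor, fell. With upper-quartile scaling 3 of these 8 regulators rose and 0 fell. The median of the regulators was 0.03, with 0.05 without [PSI+] replicate 1 and 0.12 without [PSI+] replicate 2. By the authors' deposited table, 0 genes of the 5 lists passed in YNB at an adjusted p of 0.05.

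The genes nearest to each of the 5 in profile were sought by Euclidean distance between centred log2 CPM over the 6 YPD libraries, among 4594 other genes with 50 or more reads per library on average. For GUA1 these were CDC33 (distance 0.21), which encodes the cap-binding factor eIF4E, and RPP1A (0.25), a ribosomal stalk protein gene. For ADE12 they were SIR3 (0.17), a silencing factor gene, and NOT3 (0.24), a gene of the CCR4-NOT complex. For IMD3 they were YGR130C (0.24) and HAT2 (0.28), a histone acetyltransferase subunit gene. For IMD4 they were PTH2 (0.36) and SVF1 (0.41). The nearest to IMD2 were MOH1 (1.38) and AAD10 (1.58), an aryl-alcohol dehydrogenase gene, at larger distances than those above. Both were also lower in [PSI+]. MOH1 stood at -3.98 in footprints and -4.44 in mRNA relative to all genes, and AAD10 at -5.33 and -3.62. Whether such distances are usual for genes with changes this large was not tested.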

How the data were processed

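For YPD, the authors counted reads per gene with HTSeq 0.5.3p3 (intersection-nonempty mode, per the deposited description); the submitters' processing notes name Bowtie 0.12.7 and sacCer2. Each of the 8 columns belongs to a sample. The lowest count in every column is 1; this added 1 was kept in fits and subtracted from the reads, CPM and shares printed. How reads with several matches and strand were treated is not given here. The authors' deposited YPD table holds base mean signal (counts divided by size factors) and a log2 fold from DESeq 1.6.1, per the deposited description. For YNB, the notes name cutadapt 1.2.1, Bowtie2, HTSeq 0.5.3p3, DESeq 1.6.1 and sacCer3; the deposited means, p-values and adjusted p-values are the authors'.

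The 4 [PSI+] footprint columns are 2 biological and 2 technical replicates, per the deposited description. Runs of 1 library were recognised by a chi-square comparison (genes of at least 20 reads): 2 pairs gave a chi-square per degree of freedom of 1.01 and 1.0, other pairings 19.35 or more. Pairs were summed, and their replicate number is only a name. The [psi-] pair, described as biological replicates, gave 1.27, close to counting noise, so its spread may be technical and p-values may be too small.

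Footprints were fitted with edgeR 4.0.16 (R 4.3.3; TMM, filterByExpr with a minimum count of 10, glmQLFit, glmQLFTest, Benjamini-Hochberg adjustment over all genes, threshold 0.05). The script was tested on simulated data. A count of 0 allows up to 3 reads (0.55 to 1.21 CPM). mRNA medians used genes with 10 or more reads; YNB ratios had 0.5 added. Alternatives were RLE and upper-quartile factors, no filter, DESeq2 1.42.0, leaving out each replicate, the [psi-] pair summed, 1 subtracted and IMD copies summed. Named genes were the 5 members, up to 6 called genes per list by adjusted p with further list genes by value only, and the 2 nearest profiles per member. RefSeq (R64) named 5908 of 6608 and 5677 of 6190 features. Members and lists were chosen with earlier results of these data known.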

Additional observations from a re-analysis of the deposited data

How the results depend on the processing

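Of 154 values under alternatives, 132 stayed within a tolerance and no called value changed sign. The tolerance was the spread between replicates for YPD footprints, efficiency and the IMD2 share of footprint reads. It was 1.5 times for counts of genes and the 95% counting interval for mRNA ratios and the IMD2 share of mRNA reads. For the YNB means, which have no spread, it was 0.05 (log2). With 2 libraries per group, leaving out 1 moves a mean by less than the spread between them. For gene values and shares these settings could hardly leave the tolerance, so the count of 132 does not measure stability. Without 1 replicate, 492 to 3384 genes were called in footprints and 985 to 3373 in translational efficiency, and 533 in footprints with the [psi-] pair summed, against 1779 and 2087. Upper-quartile factors moved the median of all genes from 0.02 to 0.17 in footprints and to 0.29 in translational efficiency (0.13 with RLE factors). With them the footprint log2 fold change was 0.53 for GUA1 and -0.16 for ADE12, and the efficiency change 0.88 for IMD3, -1.22 for GUA1 and -0.39 for ADE12. The ADE12 efficiency change was -0.54 with RLE factors and -0.74 with no filter. Against library totals, TMM factors moved every mRNA log2 ratio up, to -5.14 for IMD2, -1.38 for IMD3, 1.72 for IMD4, 1.98 for GUA1, 0.44 for ADE12 and -0.46 for the summed IMD copies; from library totals ADE12 was at -0.08, so its direction turned with the scaling. The causes of these moves were not tested. DESeq2 called 1324 genes in footprints. No paired analysis was possible because the [PSI+] footprint columns carry no replicate number of the labels. The depth limits IMD2 most, with 36 footprint reads over both [PSI+] libraries.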

Other observations

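The genes beside 4 of the 5 on their chromosomes had footprint values between -0.14 and 0.46, which were not tested against those of the 5. For IMD3 the neighbours were ATG23 (-0.14) and CNA1 (0.40), and for IMD4 CMP2 (0.06) and SPC2 (0.36). For GUA1 they were SKY1 (0.46) and TRS130 (0.18), and for ADE12 POP1 (0.07) and ALG9 (0.19), all as log2 fold change, [PSI+] over [psi-]. Of these 8, only SKY1 passed edgeR's quasi-likelihood test (adjusted p = 0.040), beside 34.6% of all genes tested. In mRNA, as log2 relative to the all-gene median, SPC2 beside IMD4 stood at 1.03. The rest lay between -0.64 (SKY1) and 0.41 (POP1). The genes beside IMD2, PHO12 and YHR218W, had 0 mRNA reads each in [PSI+] and 6 and 0 in [psi-], too few to compare. AAH1, the adenine deaminase gene that feeds adenine back into the IMP pool, had 1165 reads in [PSI+] mRNA and 34 in [psi-] mRNA. The ratio was 15.5 (95% counting interval 11.0 to 22.4), from mRNA libraries without a replicate. Its footprint log2 fold change was 0.85 ± 0.17 (SE). Other genes of its list went the other way in mRNA, such as APT2 (0.106) and FCY21 (0.275), as given above with the counts.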
